A study of Mus musculus with 2 samples.

Results

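Outer segment and retinal degeneration genes were followed as 10 named genes, Prph2, Rom1, Rp1, Reep6, Impg1, Impg2, Prom1, Cdhr1, Rpgr and Tulp1. They were chosen by symbol for their known link to the photoreceptor outer segment or to inherited retinal degeneration, and all 10 were found among the 32285 features of the deposited count matrices. The data were single-cell UMI counts (unique molecular identifiers, each standing for 1 captured transcript) of tdTomato-positive retinal cells. Both libraries came from mice with the reporter allele Gt(ROSA)26Sortm9(CAG-tdTomato)Hze/J on a B6.Cg background, at 14 weeks of age and 8 weeks after injection of an AAV vector. They are labelled Muller and MullerControl, with 1 library in each group. The labels do not say what each vector carried, which promoter drove it or how many mice were pooled, and Muller is read here as the test library since the other name says control. Reporter-positive cells made up about 4.9% of test and 10% of control cells at the sort, which collected 60000 and 120000 of them. With 1 library per group no test between the groups was possible, so all intervals below are 95% intervals that cover counting error only.

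The outer segment is the light-sensing compartment of rods and cones, a modified cilium filled with stacked membrane discs. It is renewed throughout life, so its proteins are made in the inner segment and carried through the narrow connecting cilium. Mutations in many of its genes cause retinitis pigmentosa, macular dystrophy or cone-rod dystrophy in humans. Prph2 and Rom1 encode tetraspanins of the disc rim that bind each other, and Rp1 encodes a microtubule-associated protein of the axoneme that runs along the discs. Prom1 and Cdhr1 encode a pentaspan membrane protein and a protocadherin at the base of the outer segment where new discs form. Rpgr encodes a GTPase regulator of the connecting cilium, Tulp1 a tubby-family protein of photoreceptor protein transport, and Reep6 an endoplasmic reticulum protein of rods. Impg1 and Impg2 encode proteoglycans of the matrix around the outer segments.

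The genes lie apart on GRCm38 (GENCODE M21 annotation) and all 10 are protein-coding. Prph2 spans chr17:46910459-46924933 on the plus strand and Rom1 chr19:8927391-8929356 on the minus strand. Rp1 spans chr1:3999557-4409241, Impg1 chr9:80313330-80465481 and Cdhr1 chr14:37077857-37098347, all on the minus strand. Reep6 spans chr10:80329953-80336441 and Impg2 chr16:56204313-56273756, both on the plus strand. Prom1 spans chr5:43993620-44102032, Tulp1 chr17:28351515-28365222 and Rpgr chrX:10073621-10216920, all on the minus strand. Rpgr overlaps Srpx on the same strand, and Prom1 overlaps Gm42716 on the same strand and Gm16401 on the opposite strand. How reads in the shared stretches were counted was not examined. No other member overlaps a gene of the files.

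The 250 bases before the transcription start are shown for 4 members, the partner genes Prph2 and Rom1, which were lower in cones than in rods, and Impg2 and Cdhr1, whose levels in cones and rods lay within 1.5-fold of each other. The sequences are from RefSeq on GRCm38.p6, 5′ to 3′ on the gene's strand, and capitals mark TAATC or its reverse complement. The windows are chr17:46910228-46910477 (plus strand) for Prph2, chr19:8929357-8929606 (minus strand) for Rom1, chr16:56204063-56204312 (plus strand) for Impg2 and chr14:37098348-37098597 (minus strand) for Cdhr1. The Prph2 window ends inside the first bases of the GENCODE gene.
Prph2: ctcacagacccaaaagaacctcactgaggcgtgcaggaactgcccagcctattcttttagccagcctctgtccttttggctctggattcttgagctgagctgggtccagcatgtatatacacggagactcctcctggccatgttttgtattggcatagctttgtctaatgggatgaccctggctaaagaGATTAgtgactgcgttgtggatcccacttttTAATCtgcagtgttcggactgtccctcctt
Rom1: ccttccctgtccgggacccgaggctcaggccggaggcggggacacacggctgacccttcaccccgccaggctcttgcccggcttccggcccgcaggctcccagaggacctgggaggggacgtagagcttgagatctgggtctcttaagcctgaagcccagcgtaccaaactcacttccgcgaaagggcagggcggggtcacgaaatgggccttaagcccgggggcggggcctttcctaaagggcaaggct
Impg2: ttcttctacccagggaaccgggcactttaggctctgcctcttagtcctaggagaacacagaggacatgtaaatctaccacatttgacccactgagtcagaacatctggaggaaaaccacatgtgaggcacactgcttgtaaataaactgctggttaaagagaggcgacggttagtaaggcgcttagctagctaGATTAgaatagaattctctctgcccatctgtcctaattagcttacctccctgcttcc
Cdhr1: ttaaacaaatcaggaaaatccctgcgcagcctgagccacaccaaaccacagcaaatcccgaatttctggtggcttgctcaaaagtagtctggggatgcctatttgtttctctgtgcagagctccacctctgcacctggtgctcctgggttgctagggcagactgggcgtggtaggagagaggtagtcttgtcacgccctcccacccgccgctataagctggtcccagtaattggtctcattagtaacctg

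The motifs searched, on both strands, were 3. TAATCC, a homeobox site bound by CRX and OTX2, and TGCTGA, part of the site of NRL and other MAF factors, were in none of the 10 windows of the 8 members that the RefSeq table holds, against 6.25% and 16.1% of 32851 promoters. TAATC, which is contained in TAATCC, was searched only after those 2 gave no match. It was in 4 of the 10 windows, against 19.8% of all promoters, with 2 matches in Prph2 and 1 in Impg2 among those printed. Windows of Rp1 and Reep6 were not in that table. These counts say only which letters stand in these windows.

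The 2 libraries held 12316 and 11309 barcodes with 25622379 and 23549118 UMIs, at medians of 1478 and 1552 UMIs per barcode (Muller first, here and below). After filters and removal of 1130 and 866 likely doublets, 10757 and 9538 cells were kept. Of the barcodes, 40 occurred in both libraries and 30 of those were kept. Cells were classed by marker genes that include no member. This gave 4551 and 6518 rods (42.3% and 68.3% of kept cells), 319 and 796 cones, 2897 and 868 bipolar cells, 618 and 164 amacrine cells, 896 and 591 Müller cells and 99 and 152 microglia. A further 554 and 178 barcodes passed several gates and 823 and 271 passed none. Every marker of each gate was at least 2-fold higher in its class than in the remaining cells, in both libraries. The gates use these same markers, so that result was largely set in advance and does not test the classes. The rod gate had 619 and 455 barcodes within 20% of its threshold, of 5277 and 7130 above it. Levels are given as counts per 1000000 UMIs of the class (CPM), a 3′ count that is not per length, so each gene is compared with itself across cells and not with another gene.

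The members made up 2.35% and 2.43% of all UMIs of rods, 0.882% and 0.834% of those of cones and at most 0.194% of those of any other named class. Rods held the highest level of Prph2, Rom1, Rp1, Reep6, Impg1 and Prom1 in both libraries. Cones and rods were close for Impg2, Cdhr1 and Tulp1. Rpgr alone had levels in bipolar and amacrine cells like those in photoreceptors, and it was lower in Müller cells and microglia.

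**Figure D1:**
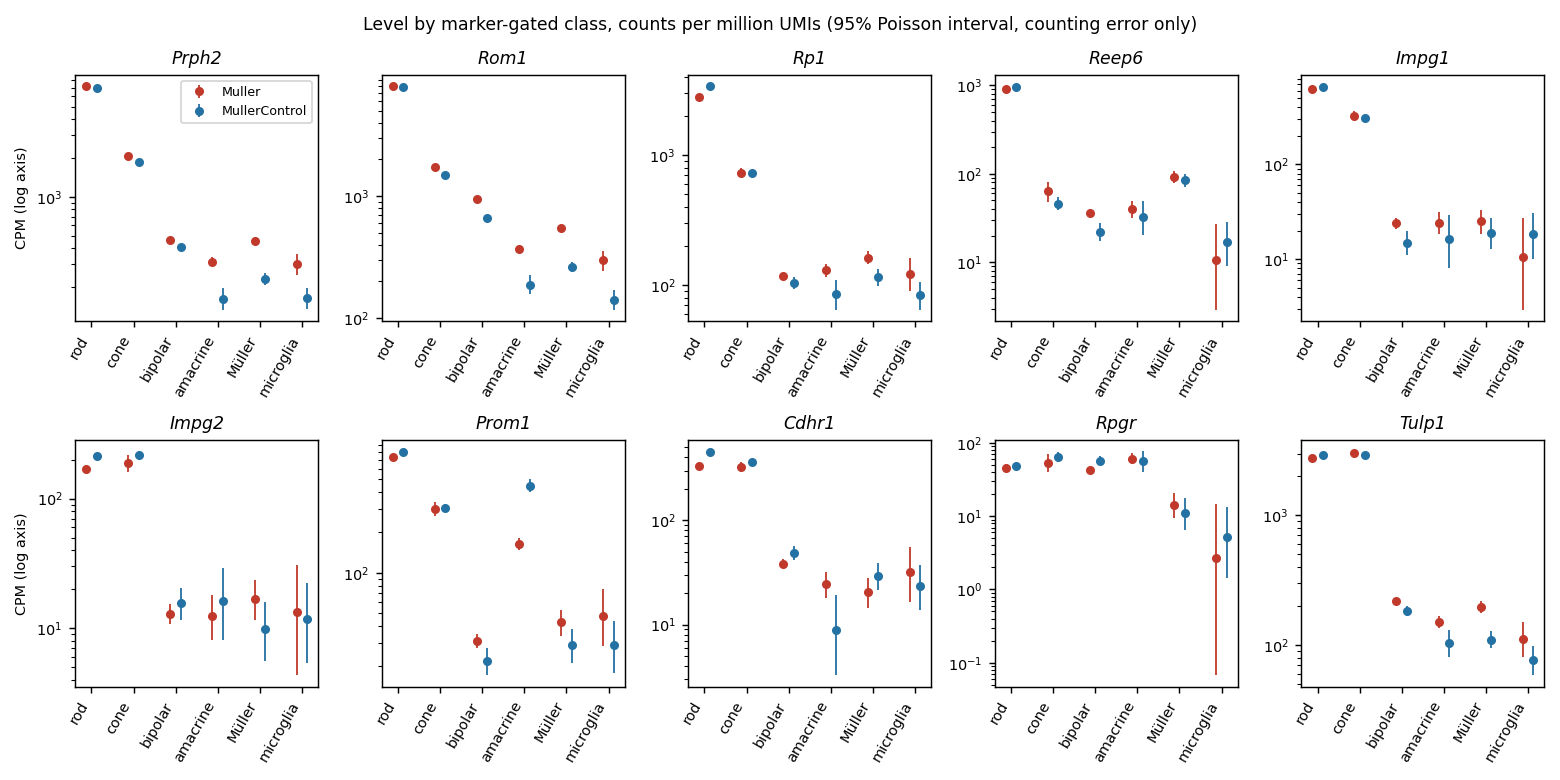
Level of each member (CPM, log axis) in 6 marker-gated cell classes of the Muller (red) and MullerControl (blue) libraries; points are class sums and bars 95% Poisson intervals. Prph2, Rom1, Rp1, Reep6, Impg1 and Prom1 are highest in rods, while Rpgr stays between 42.1 and 64.1 CPM in rods, cones, bipolar and amacrine cells.

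The tetraspanins of the disc rim were higher in rods than in cones of both libraries. Prph2 stood at 7181 CPM (7109 to 7253) and 6990 CPM (6938 to 7043) in rods and at 2060 and 1865 CPM in cones. Rom1 stood at 7956 CPM (7881 to 8033) and 7910 CPM (7853 to 7966) in rods and at 1748 and 1503 CPM in cones. Both were detected in over 95% of rods. The exact shares of rods with a UMI were 96.4% and 97.6% for Prph2 and 95.3% and 96.5% for Rom1. Of microglia, which build no outer segment, 62.6% and 42.8% also held a Prph2 UMI, at median depths of 3625 and 4921.5 UMIs against 939 and 1351 in rods, and the source of those UMIs was not tested.

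Rp1, the axonemal protein, was at 2808 CPM (2763 to 2853) and 3404 CPM (3368 to 3442) in rods and at 737 and 725 CPM in cones. Prom1 was at 735 CPM (712 to 758) and 793 CPM (775 to 811) in rods and at 299 and 303 CPM in cones. Cdhr1, its neighbour at the disc-forming base, was at 330 CPM (314 to 345) and 447 CPM (434 to 461) in rods and at 324 and 362 CPM in cones. The rod and cone intervals of Cdhr1 overlapped in the Muller library and not in MullerControl.

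The matrix proteoglycans split. Impg1 was at 625 and 661 CPM in rods against 324 and 312 CPM in cones. Impg2 was at 171 and 213 CPM in rods against 188 and 216 CPM in cones, with overlapping intervals in both libraries. Reep6, the endoplasmic reticulum gene of rods, was at 914 CPM (889 to 940) and 968 CPM (948 to 988) in rods and 63.3 and 46.1 CPM in cones.

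Among the transport genes, Tulp1 was at 2748 CPM (2703 to 2793) and 2906 CPM (2872 to 2941) in rods and at 3022 CPM (2912 to 3135) and 2943 CPM (2882 to 3006) in cones. Rpgr was at 45.0 CPM (39.5 to 51.1) and 48.2 CPM (43.9 to 52.8) in rods and 53.8 and 64.1 CPM in cones. At least 1 UMI of it was found in 5.05% and 6.37% of rods, and its rod levels rest on 239 and 463 UMIs. No single rod held more than 0.837% of the UMIs of any member.

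Cones were set against rods with at least 1000 UMIs, within each library. The cones were still deeper, at medians of 2674 and 3473.5 UMIs against 1540 and 1673 in those rods. A member was counted as higher or lower where the ratio passed 1.5-fold, which describes the ratio and is no test. In both libraries 6 of 10 members were lower in cones and 1 was higher. Of all genes compared, 14.9% and 12.3% were at least 1.5-fold lower in cones and 24.5% and 29.8% at least 1.5-fold higher. The median of the members was -1.21 and -1.26 on the log2 scale, against 0.15 and 0.23 over all genes.

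The lower members were Prph2, Rom1, Rp1, Reep6, Impg1 and Prom1. Reep6 stood furthest from even, at a log2 ratio of -4.13 (-4.53 to -3.77) and -4.52 (-4.77 to -4.27), so that cones held 0.0570 and 0.0437 of the rod level. Rom1 (-2.42 and -2.50), Prph2 (-1.98 and -1.97) and Rp1 (-1.90 and -2.15) followed. Rod markers made up 1.74% and 1.68% of cone UMIs, and their part in these cone levels was not tested. Impg1 (-1.10 and -1.16) and Prom1 (-1.33 and -1.36) differed less.

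Impg2, Cdhr1 and Tulp1 were within 1.5-fold. Tulp1 was nearly equal, at a log2 ratio of -0.02 (-0.08 to 0.04) and -0.03 (-0.06 to 0.01). Impg2 was at 0.15 (-0.10 to 0.39) and 0.07 (-0.06 to 0.20), and Cdhr1 at -0.16 (-0.34 to 0.02) and -0.37 (-0.47 to -0.27). Centred on the median of all genes, the Cdhr1 ratio in MullerControl was -0.60, past 1.5-fold lower. Rpgr was the member higher in cones, at 0.69 (0.19 to 1.18) and 0.65 (0.38 to 0.91). It no longer passed 1.5-fold in either library once ratios were centred on the median of all genes (0.55 and 0.42), nor in MullerControl without doublet removal (0.55). The call also rests on the deep rods as reference. Rpgr was at 33.3 and 40.9 CPM in those rods, 45.0 and 48.2 CPM in all rods and 53.8 and 64.1 CPM in cones. Against all rods, cones were higher by less than 1.5-fold in both libraries.

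**Figure D2:**
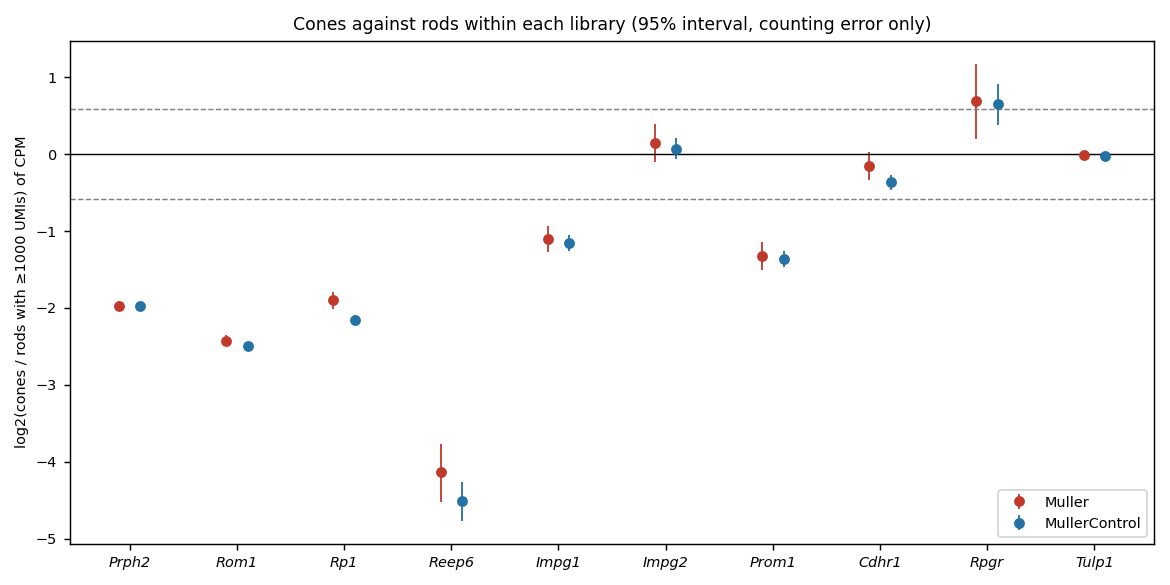
Log2 ratio of CPM in cones over rods with at least 1000 UMIs for each member in the Muller (red) and MullerControl (blue) libraries; bars are 95% intervals for counting error and dashed lines mark 1.5-fold. Reep6 lies at -4.13 and -4.52, Tulp1 near 0, and Rpgr above the upper dashed line.

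Other genes of the same compartments were read from lists chosen with earlier results of these data known. Of 20 other disc and outer segment genes, 14 were lower in cones in the Muller library and 13 in MullerControl, and none was higher. Slc24a1, the rod sodium-calcium-potassium exchanger, was at 138 CPM in cones and 2533 CPM in rods of the Muller library, and Cngb1, the beta subunit of the rod cyclic nucleotide-gated channel, at 84.4 and 1542 CPM. Of 28 connecting cilium and transport genes with enough UMIs, 6 were lower and 5 higher in each library. Bbs7, a subunit of the BBSome of ciliary transport, had a log2 ratio of -1.80 and -1.87, and Pde6d, which carries prenylated proteins to the outer segment, of 0.89 and 1.09.

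Rods were next split by depth and by the share of mitochondrial UMIs, at 1000 UMIs and 2.5%. The rods with both values at or above the split numbered 1178 and 2667, deep rods with less mitochondrial RNA 977 and 1756, shallow rods with more 1257 and 909 and shallow rods with less 1139 and 1186. Shallow rods held a larger share of the nuclear transcript Malat1, at 8.25% and 8.60% of UMIs against 3.55% and 3.38% in deep rods, and a smaller share of rod marker UMIs, at 4.29% and 4.97% against 7.94% and 8.25%. Whether those differences account for the member ratios was not tested.

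Reep6 and Rom1 were higher in deep than in shallow rods of both libraries, and Rpgr was lower. Of the 10 members, 3 were at least 1.5-fold higher in deep rods of the Muller library and 2 in MullerControl, and 1 was lower in each. Of all genes, 7.77% and 10.4% were higher and 34.1% and 38.1% lower. The median over all genes was -0.31 and -0.38 on the log2 scale, against 0.51 and 0.40 for the members.

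Reep6 was at 1111 CPM in deep and 485 CPM in shallow rods of the Muller library and at 1055 and 499 CPM in MullerControl, a log2 ratio of 1.20 (1.09 to 1.31) and 1.08 (0.97 to 1.19). Rom1 was at 9385 and 4844 CPM and at 8484 and 4815 CPM, a log2 ratio of 0.95 (0.92 to 0.99) and 0.82 (0.78 to 0.85). Among rods at or above 2.5% mitochondrial UMIs the Rom1 ratio was 1.13 and 1.06. Among rods under 2.5% it was 0.77 and 0.49, the latter within 1.5-fold. Prph2 passed 1.5-fold in the Muller library only, at a log2 ratio of 0.66 against 0.48, and did not pass there with the stricter gate (0.52) or with mitochondrial genes and Malat1 left out of the denominator (0.57). The difference between these ratios was not tested. With the split at 1500 UMIs no member passed 1.5-fold upwards in MullerControl, where Reep6 was at 0.55 and Rom1 at 0.50, while in the Muller library Reep6 (0.76) and Rom1 (0.59) still did and Prph2 (0.43) did not. Impg1 (0.56 and 0.53), Cdhr1 (0.47 and 0.47) and Tulp1 (0.56 and 0.33) were higher in deep rods by less than 1.5-fold. Among rods at or above 2.5% mitochondrial UMIs, Prph2 (0.77 and 0.59) and Impg1 (0.61 and 0.70) passed 1.5-fold in both libraries. Among rods under 2.5% neither did, at 0.54 and 0.34 for Prph2 and 0.49 and 0.22 for Impg1.

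Rpgr went the other way, from 70.7 CPM in shallow to 33.3 CPM in deep rods of the Muller library and from 87.8 to 40.9 CPM in MullerControl. Its log2 ratio was -1.09 (-1.46 to -0.71) and -1.10 (-1.40 to -0.80). Among rods at or above 2.5% mitochondrial UMIs it was -1.47 and -1.80. Among rods under 2.5% it was -0.75 and -0.42 (-0.81 to -0.02), the latter within 1.5-fold. Rp1 was at -0.09 and -0.45, Impg2 at -0.04 and -0.33 and Prom1 at 0.09 and -0.14, of which Rp1 and Impg2 in the Muller library and Impg2 and Prom1 in MullerControl turned positive once ratios were centred on the median of all genes. That centring put 6 members past 1.5-fold higher in deep rods of each library. The share of all genes after centring is not given here, so this count has no background beside it. Uncentred, Rp1 in MullerControl was past 1.5-fold lower among rods at or above 2.5% mitochondrial UMIs, at -0.61. Of the other outer segment genes, Rcvrn, the calcium sensor recoverin, was highest relative to shallow rods, with log2 ratios of 1.32 and 1.26. Rpgrip1, whose product anchors Rpgr at the connecting cilium, had ratios of -1.12 and -1.34.

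**Figure D3:**
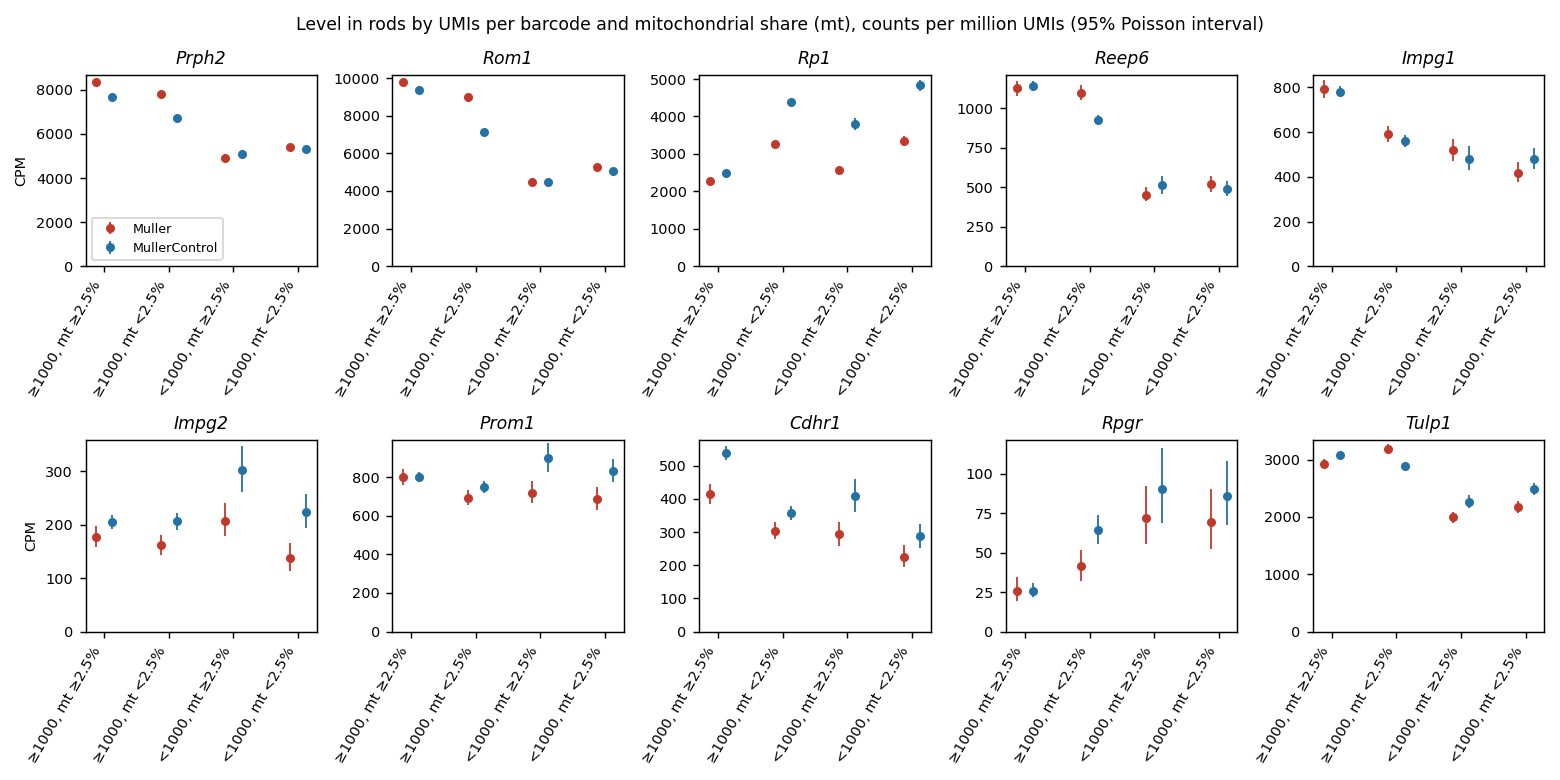
Level of each member (CPM, axis from 0) in rods split at 1000 UMIs per barcode and 2.5% mitochondrial UMIs, in the Muller (red) and MullerControl (blue) libraries; bars are 95% Poisson intervals. Rom1 and Reep6 are higher in the deep bins on the left of each panel, and at like depth Rp1 is higher in the bin with under 2.5% mitochondrial UMIs.

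Over all rods, the mitochondrial split separated Rp1 from Cdhr1 and Impg1. Rods with at least 2.5% mitochondrial UMIs had less Rp1, at a log2 ratio of -0.47 (-0.51 to -0.42) and -0.77 (-0.80 to -0.73), and more Cdhr1, at 0.43 (0.29 to 0.57) and 0.61 (0.52 to 0.71). Impg1 was at 0.40 and 0.46. None of the members passed 1.5-fold in the Muller library, where 5.67% of all genes were higher and 9.22% lower. In MullerControl 1 was higher (Cdhr1) and 2 were lower (Rp1 and Rpgr, the latter at -1.05), against 4.75% and 33.7% of all genes. Cdhr1 no longer passed without doublet removal (0.55) or with the split at 3.5% (0.51). With ratios centred on the median of all genes, 4 members were higher there and only Rpgr was lower, Rp1 standing at -0.38. The share of all genes after that centring is not given here.

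The order of Rp1 was the same in both depth ranges. Among deep rods its log2 ratio across the mitochondrial split was -0.51 and -0.82, and among shallow rods -0.38 and -0.35. Cdhr1 was at 0.45 and 0.59 among deep rods and at 0.38 and 0.50 among shallow rods. Impg1 was at 0.43 and 0.48 among deep rods. Among shallow rods Impg1 was at 0.31 in the Muller library but at 0.001 (-0.22 to 0.22) in MullerControl. Rpgr differed across the mitochondrial split among deep rods, at -0.67 and -1.31, while among shallow rods it was at 0.05 and 0.07 with intervals that include 0. Malat1 again moved with the split, at 4.07% and 2.41% of UMIs in rods with more mitochondrial RNA and 6.07% and 6.68% in those with less, and its part in these ratios was not tested.

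Between the libraries, no member passed 1.5-fold in rods as a whole, in either direction, against 15.1% of all genes higher and 2.67% lower in the Muller library. Prph2 (log2 ratio 0.04) and Rom1 (0.01) were nearly equal. Cdhr1 was furthest from even, at -0.44 (-0.52 to -0.36), followed by Impg2 at -0.32 (-0.44 to -0.21) and Rp1 at -0.28 (-0.31 to -0.25). The median of the members was -0.09 and that of all genes 0.06. Markers of other cell types were also higher in rods of the Muller library: Müller markers summed to 1079 against 366 CPM, bipolar markers to 1014 against 281 CPM and amacrine markers to 212 against 32.3 CPM. Their part in the library ratios was not tested.

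The libraries held different shares of each kind of rod, so the ratio was also taken inside the 4 bins. In deep rods with at least 2.5% mitochondrial UMIs no member passed 1.5-fold, against 13.5% of genes higher and 4.07% lower. In deep rods with under 2.5% 1 member was lower, Rpgr at -0.64 (-1.05 to -0.25) on 72 and 203 UMIs, against 12.8% of genes, and none was higher, against 6.2%. Centred on the median of all genes, that Rpgr ratio was -0.54 and did not pass. In shallow rods with at least 2.5% none passed, against 14.3% of genes higher and 10.6% lower. In shallow rods with under 2.5% 1 was lower, Impg2 at -0.71 (-1.06 to -0.36) on 109 and 193 UMIs, against 12.4% of genes, and none was higher, against 10.6%.

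Rp1, Cdhr1 and Impg2 were lower in the Muller library in all 4 bins, with intervals below 0. The log2 ratio of Rp1 was -0.12, -0.43, -0.57 and -0.53 in the order of the bins above. That of Cdhr1 was -0.38, -0.23, -0.47 and -0.35, and that of Impg2 -0.21, -0.35, -0.54 and -0.71. The median over all genes was 0.10, -0.10, -0.003 and -0.08 in these bins. In the bins with under 2.5% the Cdhr1 intervals reached up to -0.08 and -0.06, so they did not lie wholly below the median of all genes. Rom1 was above even in deep rods with under 2.5% mitochondrial UMIs, at 0.33 (0.30 to 0.36), and lay between -0.01 and 0.06 in the other bins. With 1 library per group, a difference between groups and a difference between libraries cannot be told apart.

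In cones no member passed 1.5-fold between the libraries either, against 5.71% of genes higher and 10.8% lower. Rom1 was at a log2 ratio of 0.22 (0.14 to 0.30) and Prph2 at 0.14 (0.07 to 0.22). Rp1, which was lower in rods of the Muller library, was at 0.02 (-0.10 to 0.15) in cones. Reep6 had the largest ratio, 0.46, with an interval from -0.01 to 0.91 on 60 and 136 UMIs.

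**Figure D4:**
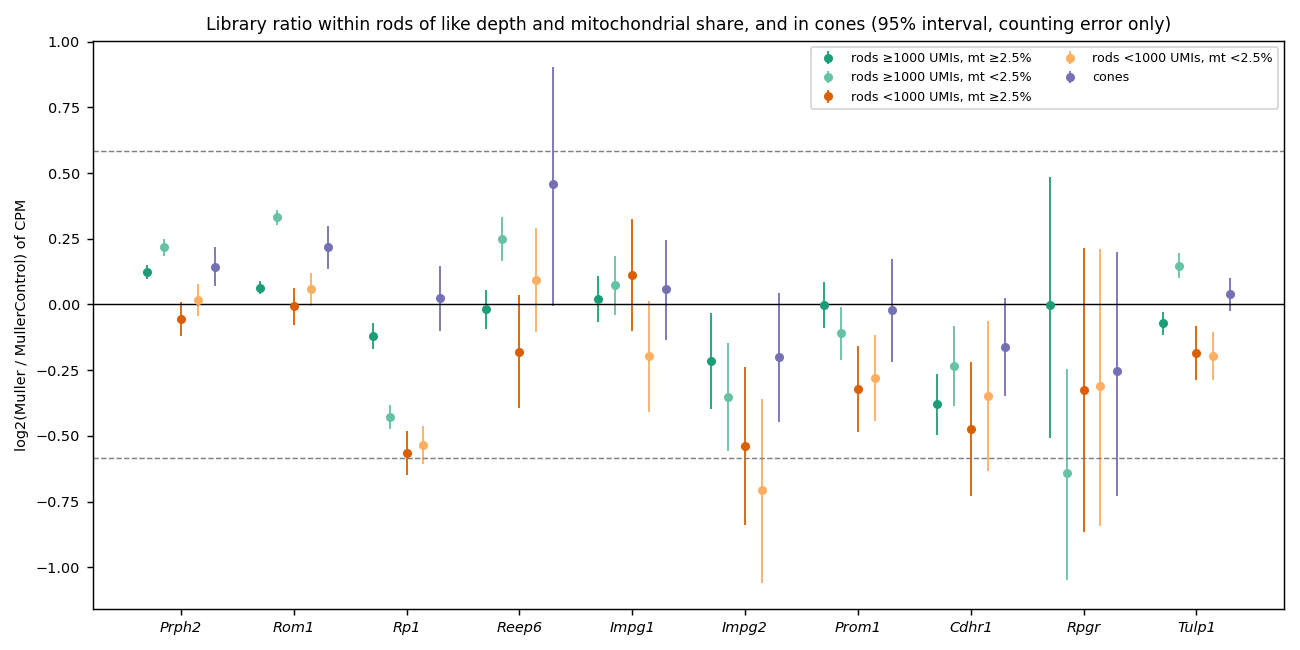
Log2 ratio of CPM in the Muller over the MullerControl library for each member, in the 4 rod bins and in cones; bars are 95% intervals for counting error and dashed lines mark 1.5-fold. Rp1, Impg2 and Cdhr1 lie below 0 in all 4 rod bins. Only Rpgr and Impg2 have a point past a dashed line, each in 1 bin, while bars of other members also reach across one.

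Outside photoreceptors every member gave some UMIs, as did rod markers, and the source of these UMIs was not tested. Each member's UMIs were divided by the rod marker UMIs of the same class and set against that ratio in rods, where a value of 1 means the same proportion to rod markers as in rods. Medians over the 10 members lay between 1.03 and 1.44 in bipolar, amacrine and Müller cells and microglia. In microglia, 3 and 4 of the 10 members were at least 1.5-fold above rods by this measure, as many as in the other classes, where the counts were 3 or 4, so only ratios that also exceed those of microglia are described as higher.

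**Figure D5:**
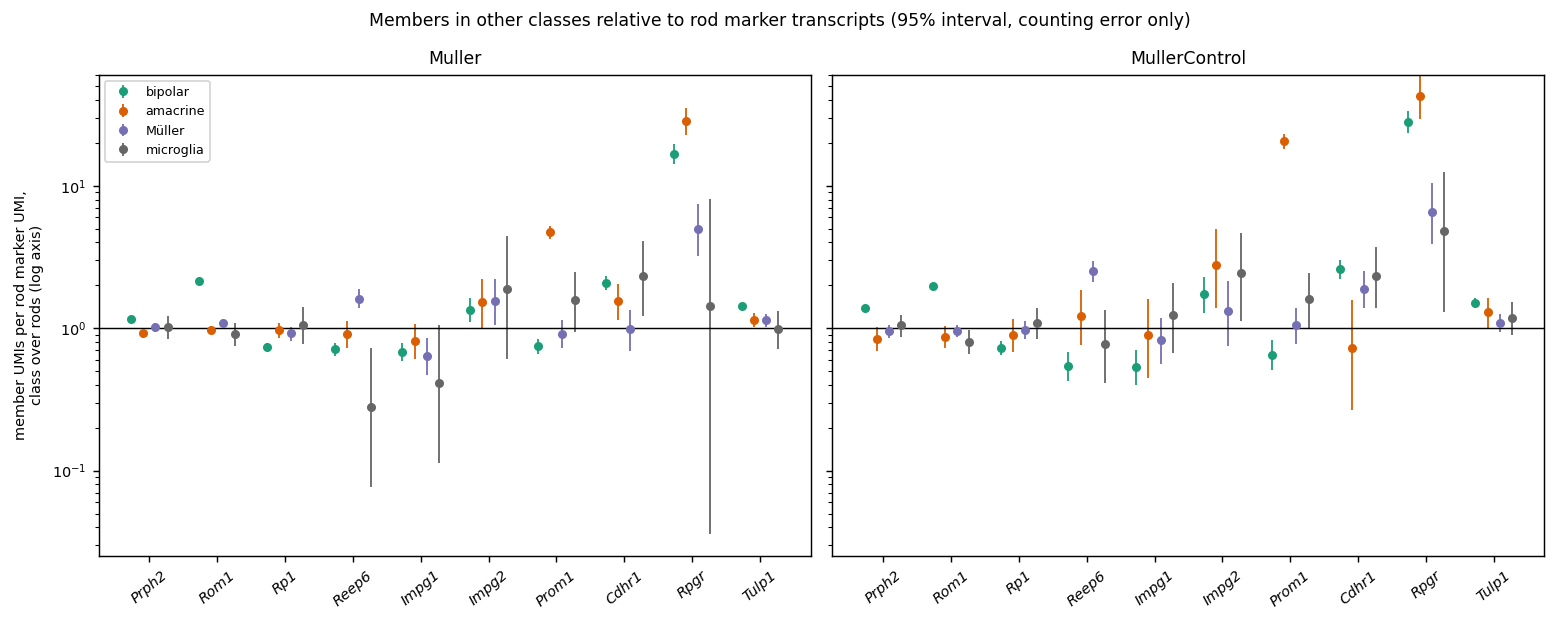
Member UMIs per rod marker UMI in bipolar, amacrine and Müller cells and microglia, divided by the same ratio in rods (log axis), for the Muller and MullerControl libraries; bars are 95% intervals for counting error and the line marks the ratio of rods. Rpgr lies at 16.7 and 28.1 in bipolar and at 28.3 and 42.4 in amacrine cells, and Prom1 in amacrine cells at 4.70 and 20.5.

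Rpgr was present in neurons of the inner retina. It was at 42.1 CPM (38.0 to 46.6) and 57.1 CPM (49.3 to 65.8) in bipolar cells and at 60.9 CPM (51.0 to 72.2) and 56.4 CPM (39.9 to 77.3) in amacrine cells. In Müller cells it was at 14.2 and 11.0 CPM and in microglia at 2.65 and 5.20 CPM, on 1 and 4 UMIs. Per rod marker UMI it was 16.7 and 28.1 times the rod ratio in bipolar cells and 28.3 and 42.4 times in amacrine cells.

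Prom1 was also found in amacrine cells, at 165 CPM (148 to 183) and 448 CPM (399 to 501), above the cone level in MullerControl and below it in the Muller library. Per rod marker UMI this was 4.70 and 20.5 times the rod ratio, against 1.58 and 1.61 times in microglia. After amacrine cells were thinned to 1000 UMIs each, 13.9% and 34.4% held a Prom1 UMI, against 5.32% and 2.72% of microglia. Before thinning the shares were 28.3% and 54.9% at median depths of 2804 and 3882.5 UMIs.

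The amacrine cells were split by transmitter genes after the Prom1 values had been seen. Cells with UMIs of Slc6a9, the glycine transporter gene, and none of the GABA synthesis genes Gad1 and Gad2 held 276 CPM (236 to 320) and 583 CPM (502 to 673) of Prom1, in 205 and 87 cells. Cells with Gad1 or Gad2 UMIs and none of Slc6a9 held 36.2 CPM (24.7 to 51.0) in 249 cells of the Muller library. In MullerControl there were only 14 such cells, with no Prom1 UMI, which allows up to 55.3 CPM. Cells with UMIs of both kinds, 126 and 61 in number, held 271 CPM (229 to 320) and 410 CPM (339 to 491). The mix of these cells differed between the libraries, so that the amacrine ratio of Prom1 between libraries (-1.44) and the mix move together. Within the cells with Slc6a9 only, and within those with both kinds, the Muller library was also the lower one.

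Rom1 in bipolar cells was at 954 CPM (934 to 974) and 664 CPM (637 to 693). Per rod marker UMI this was 2.14 and 1.99 times the rod ratio and 2.36 and 2.49 times the microglial ratio. Its partner Prph2, at 467 and 406 CPM there, was at 1.16 and 1.38 times the rod ratio. Reep6 stood out in Müller cells, at 92.8 CPM (79.7 to 108) and 84.6 CPM (71.0 to 99.9). This was 1.61 (1.38 to 1.87) and 2.52 (2.11 to 2.98) times the rod ratio. Against the microglial ratio it was 5.72 (2.19 to 21.2) and 3.23 (1.83 to 6.22) times. In microglia Reep6 was at 10.6 and 16.9 CPM, on 4 and 13 UMIs. Microglia themselves were at 0.28 (0.08 to 0.72) and 0.78 (0.42 to 1.34) times the rod ratio, so the sizes against microglia are uncertain. Cdhr1 was at 2.09 and 2.60 times the rod ratio in bipolar cells but at 2.34 times in microglia of both libraries, so in bipolar cells it was not described as higher.

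Prph2 and Rom1 were past 1.5-fold higher in the Muller library in amacrine (log2 ratios 0.96 and 0.97), Müller (0.99 and 1.05) and microglial cells (0.87 and 1.07), and not in bipolar cells (0.20 and 0.52). Among amacrine cells 4 members were at least 1.5-fold higher and 1, Prom1, was lower, against 10.5% and 12.9% of all genes. Among Müller cells 4 were higher and none lower, against 7.77% and 6.44%. Among bipolar cells 2, Reep6 (0.72) and Impg1 (0.67), were higher and none lower, against 5.25% and 6.57%. Among microglia 3 of the 6 members with at least 20 UMIs were higher and none lower, against 11.4% and 10.6%. Some of these calls rest on few UMIs. Prom1 in microglia had 18 and 22 UMIs (interval -0.24 to 1.71) and Impg2 in Müller cells 32 and 16 (-0.13 to 1.74). Cdhr1 in amacrine cells had 53 and 6 (0.23 to 2.96). Rod markers made up 0.428% against 0.268% of UMIs in Müller cells, 0.324% against 0.213% in amacrine cells and 0.280% against 0.173% in microglia, and their part in these ratios was not tested.

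Likeness of pattern was measured as the Pearson correlation of log2(CPM + 10) over 18 points, 9 classes in each of the 2 libraries, among 7027 genes. The points share libraries and cell types, so the values are descriptions. Prph2 and Rom1 were the most alike pair of members (0.989). The nearest genes of Prph2 were Grtp1 (0.994) and Rmdn3 (0.993), followed by Rom1. Tulp1 was nearest to Aipl1 (0.996), a photoreceptor chaperone gene, and Rp1 to Ppp1r42 (0.994). Impg2 was nearest to Egflam (0.990), which encodes pikachurin of the photoreceptor synapse, and Reep6 to Fam3c (0.982), Faim (0.978) and the rod transcription factor gene Nrl (0.978). Cdhr1 (Fabp12, 0.977), Rpgr (Ccser1, 0.970) and Prom1 (Pex5l, 0.965) had the least close neighbours.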

How the data were processed

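Retinal cells positive for tdTomato were profiled in 2 libraries with 10x Genomics 3′ chemistry. The values deposited are raw UMI counts for each gene and barcode, without normalization. Cell Ranger 4.0.0 and Seurat 4.0.5 are named in the submitters' processing notes. The members and all gene lists were chosen with earlier results of these data known.

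Barcodes under 300 genes or above 20% mitochondrial UMIs (429 and 905) were left out. Doublets were scored with Scrublet (scanpy 1.11.5). Its automatic threshold called 2 and 0 barcodes and so did not work, and the highest scores were removed instead, 0.8% per 1000 barcodes. A barcode joined a class where at least 3 distinct markers and a set share of its UMIs came from that marker list: 1.5% for rods, 1% for cones and microglia, 0.8% for Müller, 0.4% for bipolar and 0.2% for amacrine cells. A barcode that passed both photoreceptor gates was a cone where cone marker UMIs were not fewer than rod marker UMIs. These shares and this rule were set after the marker shares were seen. Counts were summed per class and library, giving CPM with exact Poisson intervals. Ratios have exact conditional intervals, shares have Clopper-Pearson intervals, and genes with at least 20 UMIs over both sides form the background of each of 24 comparisons. Intervals cover counting error only. The named genes were the members, the genes of 5 lists with the largest ratios, and the 3 genes nearest to each member, which for Impg1 are not reported here. The ratio step was tested on simulated data. Python 3.11.15, numpy 2.4.6, scipy 1.17.1 and pandas 2.3.3 were used. Alternatives covered doublet removal, the mitochondrial limit, the gate, the denominator, the UMI minimum, the richest cell and both splits.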

Additional observations from a re-analysis of the deposited data

Results flagged for a closer look

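The library ratio of Tulp1, the tubby-family transport gene, changed sign between kinds of rods. In deep rods with under 2.5% mitochondrial UMIs it was 0.15 on the log2 scale, higher in the Muller library. In deep rods with at least 2.5% it was -0.072, in shallow rods with at least 2.5% it was -0.18, and in shallow rods with under 2.5% it was -0.20. All 4 intervals exclude 0, but each bin holds 1 library per group and the difference between the bins was not tested. The share of rod marker UMIs was also higher in the Muller library only in the first of these bins, at 7.62% against 7.16%. In the other bins, in the same order, it was 8.24% against 8.95%, 4.14% against 4.97% and 4.46% against 4.98%. Its part in the Tulp1 ratios was not tested.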

How the results depend on the processing

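No paired analysis was possible because each group has a single library. The alternatives recomputed library ratios in rods and in rod bins, the depth and mitochondrial splits, and cones over rods. Library ratios in cones and in bipolar, amacrine, Müller and microglial cells were not recomputed. Among the recomputed ratios, no member ratio past 1.5-fold changed direction. The minimum of 100 UMIs sets only which genes are counted, so its 110 ratios could not change sign. Of all 850 member ratios recomputed, with those included, 31 changed sign, each at most 0.33 in size (log2) as reported. Of these, 10 came from centring on the median of all genes, such as Impg2 (0.06) and Prom1 (0.24) in deep rods of MullerControl, 6 each from the stricter gate and the other denominator, and 9 from the rest. Without doublet removal, 1 member (against 0) was lower between libraries in shallow rods with at least 2.5% mitochondrial UMIs, 0 (against 1) were higher across the mitochondrial split in MullerControl, and 0 (against 1) were higher in cones of MullerControl. With mitochondrial genes and Malat1 left out of the denominator, 1 member (against 0) was lower in those shallow rods. With ratios centred on the median of all genes, 6 members (against 3 and 2) were higher in deep rods of both libraries. Shares of all genes after centring are not given here. With that centring, 4 (against 1) were higher and 1 (against 2) lower across the mitochondrial split in MullerControl, 0 (against 1) were higher in cones of either library, and 0 (against 1) were lower in deep rods with under 2.5%. With the depth split at 1500 UMIs, 0 (against 2) were higher in deep rods of MullerControl. With the mitochondrial split at 2% and 3.5%, 2 and 0 (against 1) were higher in MullerControl. The cause was not tested. The counts for the stricter gate, the minimum of 100 UMIs, the mitochondrial limit, the depth split at 800 UMIs and the removal of the richest cell stayed within 1.5 times the values given. Rpgr and, in microglia, Reep6 and Impg1 are limited by few UMIs. So are the library ratios of Prom1 in microglia, Impg2 in Müller cells and Cdhr1 in amacrine cells.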
